A study of Mus musculus with 8 samples.

Results

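The genes of cholesterol synthesis, uptake and intracellular handling were examined in mouse liver after loss of NCOR, a corepressor that nuclear receptors recruit to silence their target genes. The set has 39 genes chosen by pathway role. Of these, 35 had an array row annotated to that gene alone, among 22180 genes measured in all, and for genes with more than 1 such row the brightest was used. Idi1 lay only on a row shared with another gene, and Acat2, Soat1 and Soat2 were not analysed here. Total RNA of 8 livers was hybridised to single-colour Affymetrix Mouse Gene arrays, with 4 livers in each group. All mice were 3 months old, ate normal chow, and received adeno-associated virus (AAV) through a vein 2 weeks before the livers were taken at 5 pm, which is ZT10 of the light cycle. The knockout group (NCOR_KO) was floxed for NCOR and received AAV expressing Cre, and the control group (WT) received AAV expressing GFP. The allele of the controls is not settled here, because their labels read wild-type but the series design injects floxed animals with either virus. The series title calls the knockout liver-specific, the promoter that drove Cre is not given in the sources used here, and an effect of Cre cannot be told apart from loss of NCOR. Ncor1 itself was not analysed here, so no target level checks the labels. Replicates are called biological in the labels without an animal being named for each, so a p-value speaks only of the spread among the 8 samples, which may be technical.

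Cells make cholesterol from acetyl-CoA through the mevalonate pathway, whose products are condensed to squalene, closed to lanosterol and trimmed to cholesterol. Most of these enzymes are induced by SREBP2, a transcription factor that sits in the endoplasmic reticulum bound to the escort protein SCAP. When sterols are scarce SCAP carries it to the Golgi, where the proteases encoded by Mbtps1 and Mbtps2 release its active part, and when sterols are plentiful the INSIG proteins hold the complex back. The liver also takes up cholesterol with lipoproteins, frees it in lysosomes, moves it between membranes and stores it as esters.

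Promoter sequence was available for 31 of the 39 genes in RefSeq windows on GRCm38.p6 that run from 250 bases before to 50 bases after each annotated start. Each window was searched on both strands for TCACNCCAC and for CCAAT. The first is the core of the sterol regulatory element that SREBP binds, and the second is the box of its partner NF-Y. In the sequences printed below, matches of the different motifs do not overlap. CCAAT was present in 16 of 20 windows (80%) of the SREBP2 targets and in 11 of 19 windows (57.9%) of the other members, and 37.4% of all 32851 windows held it. TCACNCCAC was present in 1.24% of all windows, in 1 of the 20 target windows, that of Hmgcs1, and in 1 of the other 19, that of Stard3. A match is a description of these letters, and its absence says nothing of binding. The following sequences give the 150 bases before the start, 5′ to 3′, with the matches in capitals (ATTGG is the box on the opposite strand), for the targets that varied most between arrays and had a window (Lss, Msmo1, Mvk) and for Hmgcs1.
Lss, chr10:76531455-76531604, plus strand: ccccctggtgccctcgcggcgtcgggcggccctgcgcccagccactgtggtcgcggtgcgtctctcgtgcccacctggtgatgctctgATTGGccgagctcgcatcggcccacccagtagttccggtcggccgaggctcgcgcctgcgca
Msmo1, chr8:64733579-64733728, minus strand: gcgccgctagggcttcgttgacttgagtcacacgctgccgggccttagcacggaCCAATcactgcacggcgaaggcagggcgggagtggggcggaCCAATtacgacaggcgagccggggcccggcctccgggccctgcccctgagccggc
Mvk, chr5:114444119-114444268, plus strand: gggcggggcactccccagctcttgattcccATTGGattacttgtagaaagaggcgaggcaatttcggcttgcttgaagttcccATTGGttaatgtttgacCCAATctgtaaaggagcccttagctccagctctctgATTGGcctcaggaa
Hmgcs1, chr13:119690201-119690350, plus strand: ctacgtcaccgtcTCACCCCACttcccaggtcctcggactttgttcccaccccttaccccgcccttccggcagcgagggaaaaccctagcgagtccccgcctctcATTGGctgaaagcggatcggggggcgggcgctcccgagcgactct
In these stretches Mvk held 4 copies of the box, Msmo1 2, and Lss and Hmgcs1 1 each, while the sterol element core of Hmgcs1 lay farther from the start than its box. The next stretches belong to the 4 genes that passed the test between groups. Insig2 has 3 annotated starts, and the array row does not say which of them was used.
Insig2, chr1:121327679-121327828, minus strand: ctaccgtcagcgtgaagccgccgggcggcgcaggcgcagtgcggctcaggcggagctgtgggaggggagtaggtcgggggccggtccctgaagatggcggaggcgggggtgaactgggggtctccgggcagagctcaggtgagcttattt
Insig2, chr1:121328025-121328174, minus strand: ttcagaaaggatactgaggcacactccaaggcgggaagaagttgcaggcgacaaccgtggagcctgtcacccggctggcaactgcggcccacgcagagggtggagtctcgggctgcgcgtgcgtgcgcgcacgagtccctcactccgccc
Insig2, chr1:121332590-121332739, minus strand: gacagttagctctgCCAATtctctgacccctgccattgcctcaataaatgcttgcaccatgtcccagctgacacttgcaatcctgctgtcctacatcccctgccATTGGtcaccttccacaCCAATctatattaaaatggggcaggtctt
Hsd17b7, chr1:169969206-169969355, minus strand: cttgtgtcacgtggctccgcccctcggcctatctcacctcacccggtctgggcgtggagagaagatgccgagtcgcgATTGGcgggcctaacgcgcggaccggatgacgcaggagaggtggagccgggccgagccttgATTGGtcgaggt
Lipa, chr19:34527475-34527624, minus strand: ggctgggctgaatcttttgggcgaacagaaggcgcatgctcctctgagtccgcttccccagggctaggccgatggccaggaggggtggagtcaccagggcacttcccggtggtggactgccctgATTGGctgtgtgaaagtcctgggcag
Nceh1, chr3:27182854-27183003, plus strand: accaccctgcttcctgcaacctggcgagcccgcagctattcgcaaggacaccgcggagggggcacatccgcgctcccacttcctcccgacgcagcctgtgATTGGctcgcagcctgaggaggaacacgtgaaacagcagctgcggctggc
Of the 3 Insig2 stretches the one farthest upstream held 3 copies of CCAAT and the others 0. Hsd17b7 held 2 copies, and Lipa and Nceh1 held 1 each.

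Median array intensity lay between 41.0 and 44.1. The number of arrays limits the precision of every value. Hepatocyte markers were strong on every array, with summed intensities of 84189 to 86192 in control and 83691 to 84930 in knockout liver, and 0 of 10 passed the test. Markers of other cells that a whole liver holds were counted beside them. These calls use a limma adjusted p under 0.05, which 1.65% of all genes reached, while 15.9% had an unadjusted p under 0.05. All 10 endothelial markers were estimated higher in knockout liver, with a median log2 change of 0.21. Of these 10, 1 passed (Robo4), 6 had an unadjusted p under 0.05, all higher, and in 3 the groups did not overlap (10.4% of all genes). Their summed intensity was 6234 to 7461 in control and 7322 to 8534 in knockout liver. Of 8 measured lymphocyte markers 2 rose, Cd3e and Cd79a, 4 had an unadjusted p under 0.05, all higher, and the median change was 0.14. Of the 8, 6 lay above 0 and 2 below. These markers were dim. In control liver Cd3e (5.57) and Cd79a (5.08) lay below 5.88, the median over all genes of the mean log2 intensity. Their summed intensity was 335 to 357 in control and 385 to 436 in knockout liver. Of 5 measured cholangiocyte markers 1 rose (Epcam), 2 had an unadjusted p under 0.05 and all 5 lay above 0, with a median change of 0.24 and sums of 320 to 342 against 373 to 442. Kupffer cell and other macrophage markers (0 of 10 passed) varied widely inside both groups, with sums of 2916 to 5144 in control and 3307 to 5570 in knockout liver. Stellate cell markers (0 of 10 passed) summed to 6810 to 7427 and 6682 to 7853. No array value of any marker was 0, but the lowest intensity on any row was 5.42, so this does not show expression. In bulk tissue, more cells of a type and more RNA per cell cannot be told apart, and the part of these cells in the results below was not tested.

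In knockout liver 4 of the 35 measured genes rose and 0 fell, and 31 did not pass. The 4 were Insig2, which holds SREBP2 back, Lipa, the lysosomal acid lipase, Nceh1, a cholesteryl ester hydrolase, and Hsd17b7, an enzyme late in the synthesis pathway. Calls were made with limma at an adjusted p under 0.05, adjusted by Benjamini-Hochberg over all 22180 genes. The same rule called 1.65% of all genes, 0.816% higher and 0.834% lower, against 11.4% of these 35. Nearly all of the 35, 34 of them, lay at or above the median level of all genes. When only genes at or above that level were fitted, the rule called 551 of 11090 genes and 6 of these 34. With each array centred on its median the all-gene split of 181 higher and 185 lower became 145 and 295. In 6 of the 35 genes (17.1%) the groups did not overlap at all, with the knockout livers higher in 5 and lower in 1. Over all genes 10.4% did not overlap, 4.90% higher and 5.49% lower. An unadjusted p under 0.05 was reached by 12 of the 35, 8 higher and 4 lower, and by 15.9% of all genes, 7.75% higher and 8.15% lower. The median log2 change of the 35 was 0.01, as it was over all genes (0.01), with 19 above 0 and 16 below, or 21 above after quantile normalization and 15 with centred arrays. The set thus held a few raised genes, while its median lay at that of all genes. The count of 4 was 1 when WT replicate 1, 3 or 4 or NCOR_KO replicate 1, 2 or 3 was left out singly, 2 without NCOR_KO replicate 4, and 4 without WT replicate 2, when Mvk entered as lower and Nceh1 left. Lipa was called in all 8 of those fits.

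**Figure D1:**
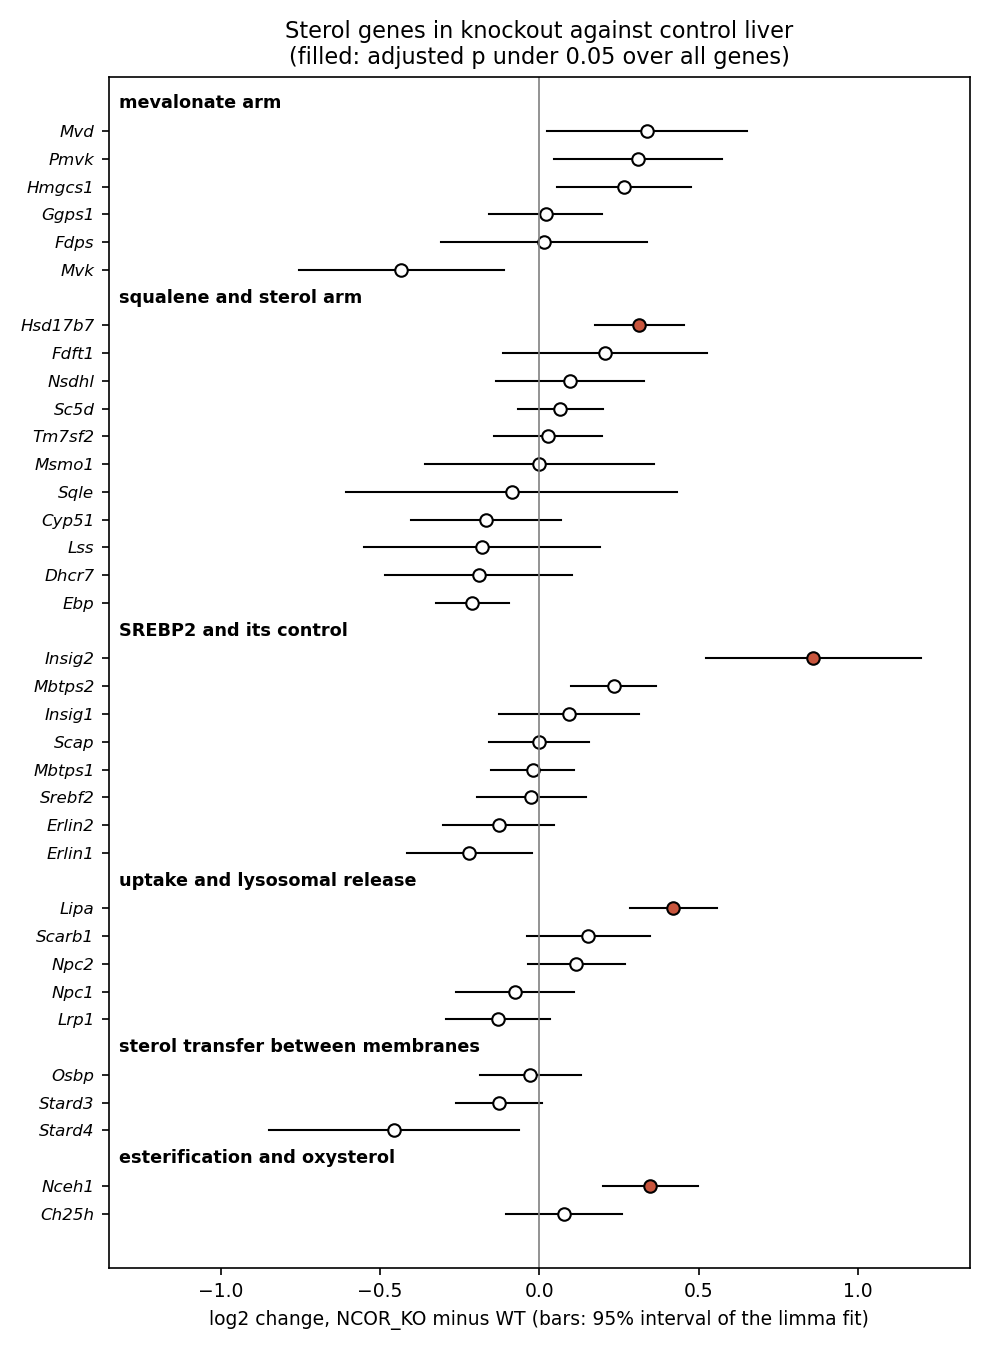
Log2 change between knockout and control liver (NCOR_KO minus WT, horizontal axis) for the 35 measured genes, grouped by role, with the 95% interval of the limma fit as bars (n = 4 livers per group) and filled points for an adjusted p under 0.05. The 4 filled points are Insig2 at 0.86, Lipa at 0.42, Nceh1 at 0.35 and Hsd17b7 at 0.31; the mevalonate genes lie on both sides of 0.

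Among SREBP2 and its 7 controllers Insig2 rose, 0 fell and 7 did not pass. Insig2, unlike Insig1, is not induced by SREBP2, and the liver makes a transcript of it that insulin lowers. Its log2 intensity was 10.15, 10.69, 9.92 and 10.05 in control livers and 11.23, 11.17, 10.94 and 10.90 in knockout livers. Every knockout liver lay above every control liver, and WT replicate 2 was the control nearest to them. The rise was 0.86 ± 0.15 on the log2 scale (SE; 1.81-fold; limma adjusted p = 0.0247), from 10.20 ± 0.34 to 11.06 ± 0.17 (SD, n = 4). Leaving out WT replicate 1, 3 or 4 gave limma adjusted p-values of 0.0684, 0.0573 and 0.0770 at changes of 0.84, 0.76 and 0.81. Leaving out NCOR_KO replicate 1, 2 or 3 gave 0.0720, 0.0868 and 0.0509 at changes of 0.80, 0.82 and 0.90. Without WT replicate 2 the change was 1.02 (adjusted p = 0.00165).

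Insig1, the INSIG gene that SREBP2 induces, was at 11.42, 11.31, 11.41 and 11.33 in control and 11.66, 11.15, 11.51 and 11.54 in knockout livers. NCOR_KO replicate 2 was the lowest of all 8 arrays and the other 3 knockout livers lay above every control. The change of 0.09 had a 95% interval from -0.13 to 0.31 (limma adjusted p = 0.688). Whether the 2 INSIG genes differed in their change was tested on the Insig2 minus Insig1 difference within each array, a test chosen after these values were seen. Only the change of that difference has a meaning, since the 2 genes have different probes. It was -1.17 ± 0.38 in control and -0.40 ± 0.29 in knockout livers (SD, n = 4), 0.77 apart, with p = 0.0571 in a two-sided exact permutation test over 70 assignments, whose smallest possible p is 0.0286. An unequal change of the pair was thus not shown with 4 livers a group.

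Srebf2, which encodes SREBP2, was at 8.67, 8.65, 8.67 and 8.70 in control livers and at 8.68, 8.47, 8.60 and 8.84 in knockout livers. NCOR_KO replicates 2 and 3 lay below the tightly grouped controls and replicate 4 above them. The change of -0.03 had an interval from -0.20 to 0.15 (limma adjusted p = 0.902). Scap was at 9.36, 9.48, 9.29 and 9.52 in control and 9.43, 9.33, 9.52 and 9.37 in knockout livers, with a 95% interval of its change from -0.16 to 0.16 (limma adjusted p = 0.994). The groups overlapped almost completely, and the sign of the difference turned in 9 of 17 alternatives for Scap and in 3 of 17 for Srebf2.

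Of the 2 SREBP proteases only Mbtps2 separated the groups. This metalloprotease makes the second cut, within the membrane. Its values were 8.89, 8.87, 8.99 and 8.95 in control and 9.07, 9.22, 9.16 and 9.20 in knockout livers. All knockout livers lay above all controls, yet the change of 0.23 ± 0.06 (SE) missed the threshold with a limma adjusted p of 0.0893. Mbtps2 passed in 1 of 17 alternatives, when genes under the median level were left out (limma adjusted p = 0.0499). A further row that names Mbtps2 among several genes was not used. Mbtps1, the protease of the first cut, was at -0.02 ± 0.06 (limma adjusted p = 0.899). Erlin1 and Erlin2 encode endoplasmic reticulum proteins that bind cholesterol and restrain SREBP activation. Erlin1 was at 9.86, 9.41, 9.72 and 9.66 in control and 9.47, 9.46, 9.42 and 9.42 in knockout livers. WT replicate 2 lay just below the knockout values and the other controls above them. The change of -0.22 ± 0.09 (SE) had a limma adjusted p of 0.255, or 0.0622 at -0.30 without that control. Erlin2 was at -0.13 (adjusted p = 0.467).

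**Figure D2:**
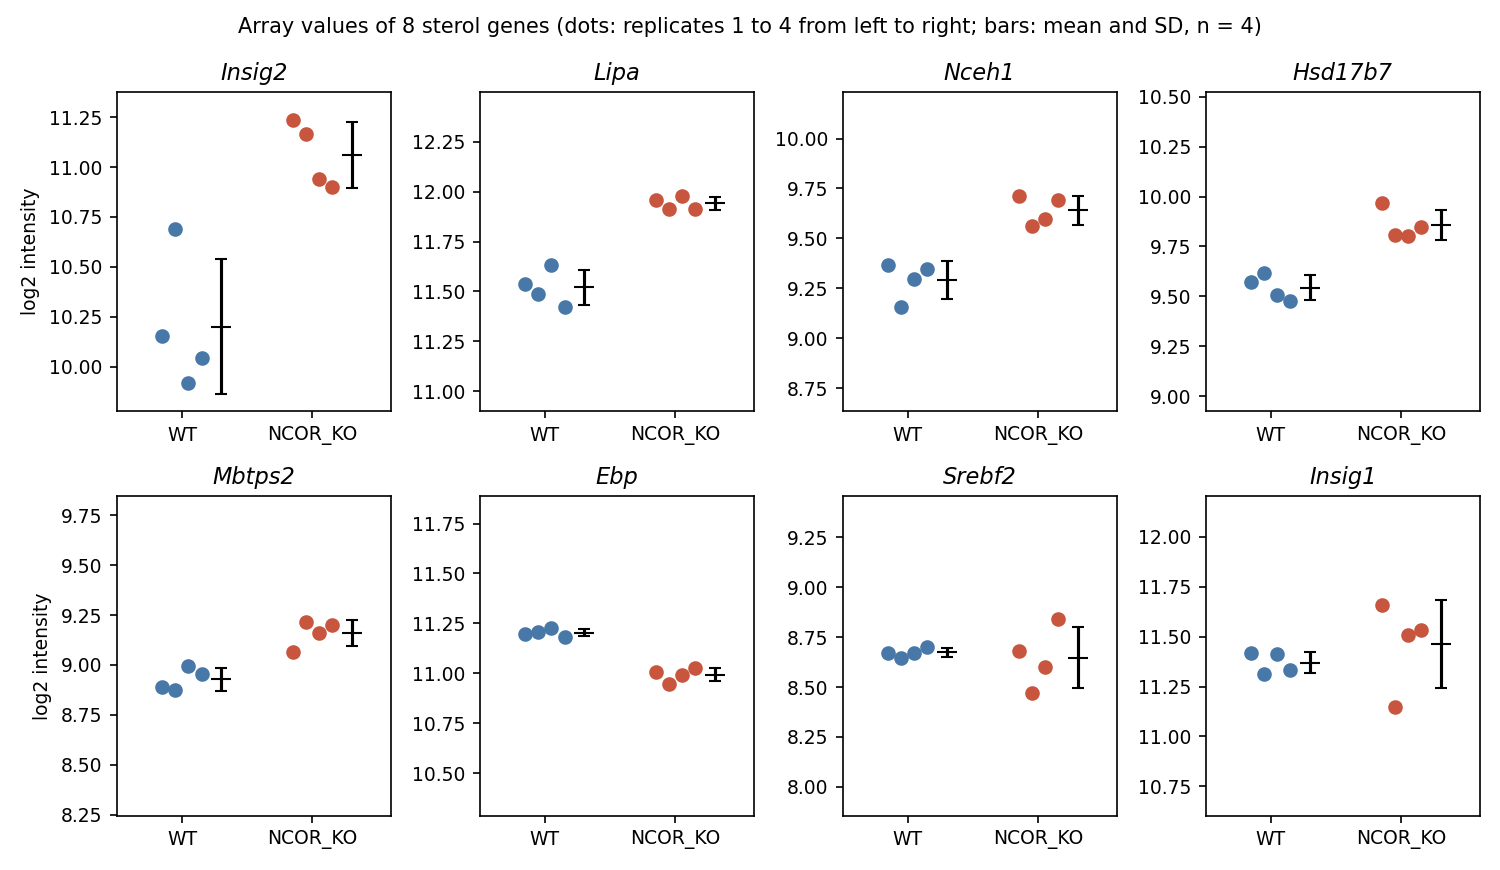
Log2 intensity (vertical axis, the same span of 1.6 units in each panel) on each array for 8 genes, with dots for replicates 1 to 4 of WT and NCOR_KO and the mean with SD beside them (n = 4). In Insig2, Lipa, Nceh1, Hsd17b7 and Mbtps2 all knockout dots lie above all control dots, in Ebp all lie below, and in Srebf2 and Insig1 the groups overlap.

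In the mevalonate arm 0 of 6 measured genes passed the test, with 5 estimates above 0 and 1 below. An unadjusted limma p under 0.05 was reached by 4 of the 6, 3 higher and 1 lower (66.7%, against 15.9% of all genes). Hmgcs1, which condenses acetyl units to HMG-CoA, was at 10.27, 10.09, 10.01 and 10.27 in control and 10.54, 10.22, 10.36 and 10.59 in knockout livers. NCOR_KO replicate 2 lay among the controls, and the change of 0.27 ± 0.09 (SE) had a limma adjusted p of 0.207. Mvk, mevalonate kinase, went the other way, at 7.62, 7.08, 7.73 and 7.56 in control against 6.94, 7.01, 6.92 and 7.39 in knockout livers. WT replicate 2 was the one low control and NCOR_KO replicate 4 the one high knockout, so the groups overlapped. The change of -0.43 ± 0.14 (SE) had a limma adjusted p of 0.178, and without WT replicate 2 it was -0.57 and passed (adjusted p = 0.0442).

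The kinase and decarboxylase that follow Mvk in the pathway, Pmvk (0.31, limma adjusted p = 0.236) and Mvd (0.34, limma adjusted p = 0.276), were estimated higher where Mvk was estimated lower. None of these 3 estimates passed. Pmvk was even in 3 knockout livers, at 8.68 to 8.70, and low in NCOR_KO replicate 2, at 8.19, within the 8.11 to 8.39 of the controls. Fdps, farnesyl diphosphate synthase, was at 0.01 with an interval from -0.31 to 0.34, and Ggps1, which makes the geranylgeranyl lipid used to anchor proteins, was at 0.02 with a narrower interval from -0.16 to 0.20.

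In the squalene and sterol arm 1 of 11 genes rose, 0 fell and 10 did not pass. The gene that rose was Hsd17b7, which reduces the keto group left when methyl groups are removed from the sterol ring. It was at 9.57, 9.62, 9.51 and 9.48 in control and 9.97, 9.81, 9.80 and 9.85 in knockout livers. The groups were well apart for a small change, 0.31 ± 0.06 (SE; 1.24-fold; limma adjusted p = 0.0381). The call was kept without WT replicate 2 (adjusted p = 0.0434) and lost without any other single array, at adjusted p-values of 0.0818, 0.0957 and 0.104 without WT replicates 1, 3 and 4. Without NCOR_KO replicates 1 to 4 they were 0.0938, 0.0962, 0.0715 and 0.0762. The change stayed between 0.28 and 0.34 in those fits. With each array centred on its median it was 0.28 with an adjusted p of 0.0742.

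Ebp, the sterol isomerase that acts after Hsd17b7, had the tightest values of the set. It was at 11.20, 11.21, 11.23 and 11.18 in control and 11.01, 10.95, 10.99 and 11.03 in knockout livers. All knockout livers lay below all controls, and the change of -0.21 ± 0.05 (SE) missed the threshold (limma adjusted p = 0.0791). It passed with a trend and robust variance (adjusted p = 0.0222) and when genes under the median level were left out (0.0407).

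Sqle, squalene epoxidase and a rate-limiting step, varied most. It was at 9.01, 8.40, 9.09 and 9.08 in control and 8.55, 8.28, 8.96 and 9.44 in knockout livers. The knockout livers alone spanned 1.16 log2 units (2.23-fold), enclosing every control value, so the change of -0.09 carried an interval from -0.61 to 0.43 (limma adjusted p = 0.891). Without NCOR_KO replicate 2 its sign turned, to 0.09. Msmo1, the sterol methyl oxidase, had equal group means of 9.16 and a range of 8.78 to 9.64 in knockout livers against 8.95 to 9.25 in controls. The other estimates ran from -0.19 (Dhcr7, the reductase that ends one branch) and -0.18 (Lss, lanosterol synthase) to 0.20 (Fdft1, squalene synthase), each with an interval across 0. Between them lay Cyp51, the lanosterol demethylase (-0.17), Tm7sf2, a sterol reductase (0.03), Sc5d, the sterol desaturase (0.07), and Nsdhl, the dehydrogenase of sterol demethylation (0.10). The intervals of Fdft1, Sqle, Msmo1 and Nsdhl reached past a rise as large as that of Hsd17b7, so such a rise could not be told from none in them. Those of Dhcr7, Lss, Cyp51, Tm7sf2 and Sc5d ended below it, at 0.20 or less.

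Of 5 genes of uptake and lysosomal release 1 rose, Lipa, 0 fell and 4 did not pass. Lipa frees cholesterol and fatty acids from the esters and triglycerides that reach lysosomes. It was at 11.54, 11.49, 11.63 and 11.42 in control and 11.96, 11.91, 11.98 and 11.91 in knockout livers. Knockout livers were almost equal to one another and all above the controls, with a change of 0.42 ± 0.06 (SE; 1.34-fold; limma adjusted p = 0.00936). Its adjusted p stayed between 0.0124 and 0.0370 without any 1 of the arrays. Macrophages also carry this enzyme. Their 10 markers had a median change of 0.07, with 7 above 0 and 0 past the threshold, and their part in the rise of Lipa was not tested.

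The proteins that take free cholesterol out of the lysosome did not pass. Npc1, in the lysosomal membrane, was at 11.06, 11.29, 10.96 and 11.28 in control and 11.06, 11.03, 11.17 and 11.02 in knockout livers. The groups overlapped, with a 95% interval of -0.26 to 0.11, and its soluble partner Npc2 was at 0.12 with an interval of -0.04 to 0.27. A rise as large as that of Lipa thus lay outside both intervals. Scarb1, the HDL receptor, was at 10.27, 10.28, 10.05 and 10.11 in control and 10.18, 10.27, 10.53 and 10.34 in knockout livers, which overlap, at 0.15 ± 0.09 (SE; limma adjusted p = 0.427). Lrp1, a receptor for lipoprotein remnants, was at -0.13 (adjusted p = 0.422).

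Of the genes for sterol transfer between membranes 0 of 3 passed. Stard4, a soluble sterol carrier that SREBP2 induces, had the lowest estimate of all 35 genes. It was at 8.68, 8.06, 8.53 and 8.41 in control and 7.56, 7.76, 8.29 and 8.26 in knockout livers. NCOR_KO replicates 1 and 2 were low and the other two lay inside the control range, and the change of -0.46 ± 0.18 (SE) had a limma adjusted p of 0.244. Stard3, which ties late endosomes to the endoplasmic reticulum, was at -0.13 (adjusted p = 0.343), and Osbp, which exchanges sterol for a phosphoinositide at the Golgi, was at -0.03 (adjusted p = 0.883).

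For ester storage and oxysterols 2 of 4 genes were measured and 1 rose. Nceh1, which hydrolyses cholesteryl esters outside the lysosome, was at 9.37, 9.16, 9.30 and 9.35 in control and 9.71, 9.56, 9.60 and 9.69 in knockout livers. The groups did not overlap, and the change was 0.35 ± 0.07 (SE; 1.27-fold; limma adjusted p = 0.0359). The call was lost on leaving out any 1 array, with adjusted p-values of 0.0570 (without WT replicate 2) to 0.0914 (without NCOR_KO replicate 1) and changes of 0.30 to 0.37. A second Nceh1 row, at a mean log2 intensity of 5.58, showed a change of 0.05, so the mean of both rows gave 0.20 with an adjusted p of 0.188. Ch25h, which makes 25-hydroxycholesterol, was at 4.38 in control and 4.45 in knockout liver, with overlapping groups and an interval of the change from -0.11 to 0.26.

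Outside the 39 genes, a list of 42 others with roles in the same pathway was read from the same fit. Of its 34 measured genes 0 passed by limma, and 10 had an unadjusted p under 0.05, 7 of them higher in knockout liver and 3 lower. That is 29.4% of the list, against 15.9% of all genes. In 5 of the 34 the groups did not overlap, 3 higher and 2 lower, and the median change was -0.01. These 5 are 14.7% of the list, against 10.4% of all genes. The largest estimates were those of Aacs, which supplies acetoacetyl-CoA from ketone bodies (-0.51, limma adjusted p = 0.108), and Osbpl11, an oxysterol-binding relative (0.41, limma adjusted p = 0.166). Aacs was at 9.36, 8.71, 9.15 and 9.39 in control and 8.52, 8.74, 8.48 and 8.81 in knockout livers. WT replicate 2 was again the low control, and without it the change of Aacs was -0.66 with an adjusted p of 0.0162. Rnf145, a ubiquitin ligase that acts on SCAP, was named after its values were seen. It was higher in all 4 knockout livers, by 0.39 (limma adjusted p = 0.0603), and passed under 5 alternatives, 1 of them the looser threshold of 0.1.

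Inside each group most SREBP2 targets deviated in the same direction on some arrays, in control liver mainly on WT replicate 2. For each of the 19 measured targets the mean of its own group was subtracted, so that no difference between groups remained. In WT replicate 2, 17 of 19 targets lay below their control mean, and in NCOR_KO replicate 2 all 19 lay below their knockout mean. In NCOR_KO replicate 4, 18 of 19 lay above it. Over all genes the corresponding shares were 58.7% below, 48.8% below and 48.6% above. WT replicate 2 was the lowest control for 14 of the 19 targets (36.7% of all genes), and NCOR_KO replicate 2 was the lowest knockout for 16 (20.5% of all genes). A low WT replicate 2 was not particular to the targets. Every macrophage marker was also lowest there among controls, such as Vsig4 (9.14 against 10.06 to 10.39) and Cd5l (8.63 against 9.39 to 9.60). Among knockout livers Vsig4 and Cd5l were lowest in replicate 1. WT replicate 2 also had the lowest median intensity, 41.0. The cause was not tested.

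**Figure D3:**
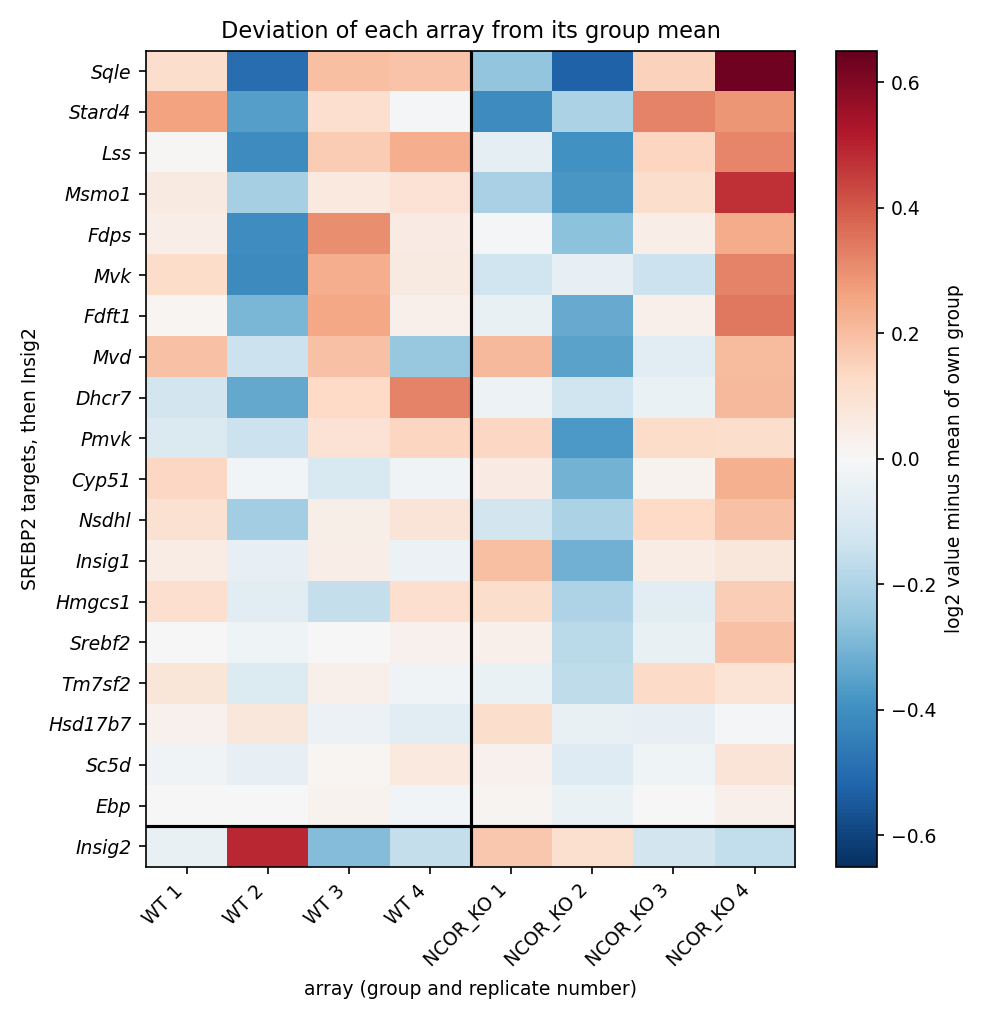
Log2 value minus the mean of the array's own group (colour) for the 19 SREBP2 targets and, in the bottom row, Insig2 (rows, targets ordered from the most to the least variable) on the 8 arrays (columns). WT replicate 2 and NCOR_KO replicate 2 are blue for nearly all targets and NCOR_KO replicate 4 is red, while Insig2 has the opposite colours.

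Averaged over the 19 targets, control livers deviated from their mean by 0.06, -0.19, 0.08 and 0.05 (replicates 1 to 4) and knockout livers by -0.02, -0.24, 0.04 and 0.22. WT replicates 1, 3 and 4 were thus nearly alike with replicate 2 below them, while the knockout livers were spread from low to high. The range was 0.28 in control and 0.46 in knockout livers. It fell to 0.03 without WT replicate 2, and to 0.24 and 0.28 without NCOR_KO replicates 2 and 4. A single pattern across the 4 arrays held 78.6% of the targets' squared deviation in control and 80.2% in knockout livers, where all genes gave 47.7% and 50.3%. Other short lists also gave high shares, so a high share is not particular to the targets. Hepatocyte markers gave 74.7% and 79.0%, lipogenic genes 91.1% and 62.6%, and the other members 67.3% and 47.1%. The median SD of a target was 0.14 in control and 0.22 in knockout livers, against 0.11 and 0.10 over all genes. Whether the spread differed between the groups was not tested.

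The targets differed in how far they took part. Sqle spanned 0.69 log2 units in control and 1.16 in knockout livers, Lss 0.64 and 0.71, Stard4 0.62 and 0.73, Fdft1 0.55 and 0.67 and Msmo1 0.31 and 0.86. Sqle varied more inside the groups than 99.4% of all genes. At the other end Ebp spanned 0.04 and 0.08, Sc5d 0.12 and 0.17, and Hsd17b7 0.14 and 0.16. Hsd17b7 deviated against the sign of the targets' mean on 6 of the 8 arrays and Ebp on 5, while Sc5d deviated with it on 5. Of the 19 targets 6 deviated with the sign of the targets' mean on all 8 arrays, which 1.19% of all genes did, although each target is itself part of that mean. These were Fdps, Fdft1, Sqle, Lss, Msmo1 and Nsdhl.

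The other 16 measured members did not share the pattern as a group. Their mean deviation ran from -0.04 to 0.03 in control and from -0.03 to 0.02 in knockout livers, with WT replicate 2 at 0.01 and NCOR_KO replicate 2 at -0.01. At least 6 of 8 signs matched those of the targets in 3 of the 16, against 12 of the 19 targets and 21.1% of all genes. The count of the targets is raised by the measure itself, since each target is part of the mean that sets these signs. Lipogenic genes, which SREBP1 drives, followed the pattern in part. Their 13 members deviated by -0.20, -0.19, 0.23 and 0.16 in control and -0.01, -0.08, -0.00 and 0.09 in knockout livers. WT replicate 1 was therefore low in lipogenic genes but not in SREBP2 targets. Hepatocyte markers deviated by at most 0.03 in either direction.

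**Figure D4:**
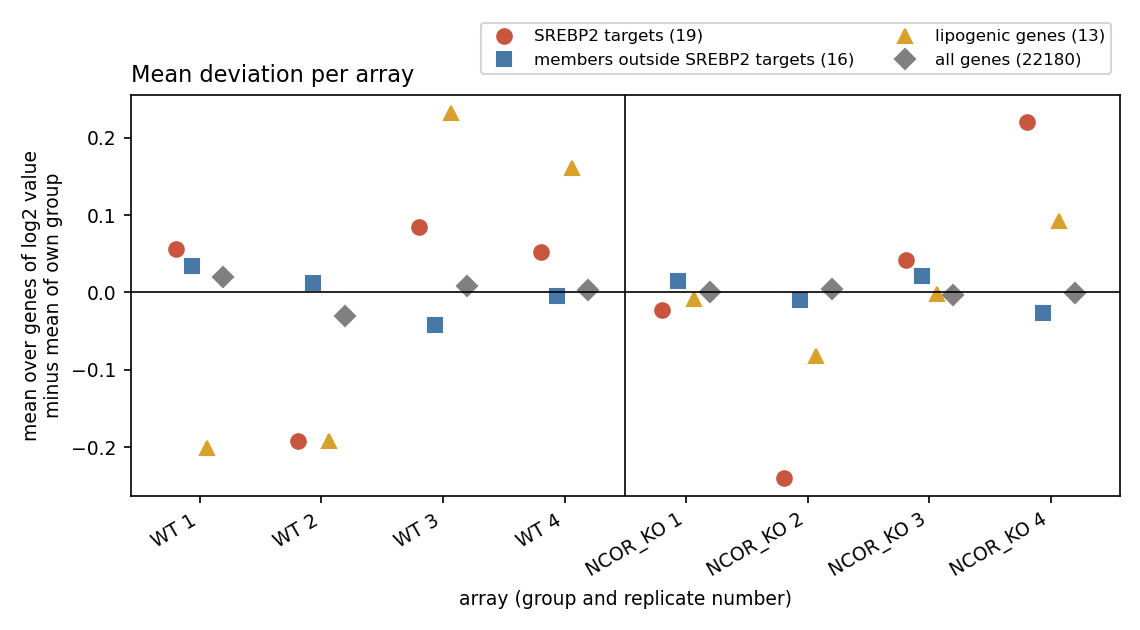
Mean over genes of the log2 value minus the mean of the array's own group (vertical axis) on the 8 arrays for the SREBP2 targets, the other measured members, 13 lipogenic genes and all 22180 genes. The targets are lowest in NCOR_KO replicate 2 (-0.24) and WT replicate 2 (-0.19) and highest in NCOR_KO replicate 4 (0.22), and the other members stay close to 0.

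Insig2 ran opposite to the targets, an observation made after the values were seen. Its deviation was 0.49 in WT replicate 2, where the targets were low, and -0.05, -0.28 and -0.16 in the other controls. In knockout livers it was 0.17 and 0.11 in replicates 1 and 2 and -0.12 and -0.16 in replicates 3 and 4. Its sign was opposite to that of the targets' mean on all 8 arrays, which was so for 0.906% of all genes. WT replicate 2 thus combined the highest Insig2 level of the controls with the lowest level of 14 of the 19 targets. Between the groups Insig2 rose, while the targets had a median change of 0.01 and 1 of 19 passed the threshold. An unadjusted limma p under 0.05 was reached by 7 of the 19, 4 higher and 3 lower (36.8%, against 15.9% of all genes). These patterns inside the groups are descriptions, since 4 arrays are too few for a correlation.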

How the data were processed

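RNA of 8 liver samples was measured on 8 arrays. The authors deposited linear intensities. RMA and Partek are named, without versions, in the submitters' processing notes. Log2 was taken with no further normalization, background correction or filter on dim rows. RMA merges probes into 1 row and is known to compress large differences. Of 41345 rows 25335 had a gene in the platform annotation. The 1814 with several genes were left out, and the brightest row was kept for each of 22180 genes.

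Groups and replicate numbers came from the sample titles. Each gene was tested with lmFit and eBayes of limma 3.58.1 (R 4.3.3), with group as the only term and Benjamini-Hochberg adjustment across the 22180 genes; intervals are 95%. The steps were tested on simulated data with known changes. The members, gene lists, roles and rules were chosen with earlier results of these data known. All 39 members were reported, with array values for those past the threshold, those whose groups did not overlap, the 3 largest changes each way and a set named for its role. In the wider list only the 2 largest changes were named, besides Rnf145 and Cyp46a1, which were picked after seeing values. Alternatives were quantile normalization, centred arrays, array weights, a trend and robust variance, brighter genes only, the mean of a gene's rows, the replicate block, a threshold of 0.1, single arrays left out and 2 pairs of arrays left out. Figures used matplotlib 3.10.9 on Python 3.11.15.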

Additional observations from a re-analysis of the deposited data

Results flagged for a closer look

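Within each group of 4 livers the lowest or highest value was checked by its gap to the nearest other value. This gap was divided by the range of all 4 values, for the 35 genes and the mean of the SREBP2 targets. Of 72 groups 4 had a value far from the rest, and chance gives about 1 in 20. Pmvk was at 8.19 in NCOR_KO replicate 2, where the other knockout livers lay at 8.68 to 8.70. In WT replicate 2 Sqle was at 8.40 against 9.01 to 9.09 in the other controls, Msmo1 was at 8.95 against 9.22 to 9.25, and the mean of the SREBP2 targets was at 9.35 against 9.60 to 9.63. The 3 last values come from the same array and share genes.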

How the results depend on the processing

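Lipa kept its call in 16 of 17 alternatives, Insig2 in 11, Hsd17b7 in 6 and Nceh1 in 5, all with the same direction. The count of 4 called members became 2 with the replicate block (Insig2 and Lipa), 2 without WT replicate 2 and NCOR_KO replicate 1 together, 1 (Insig2) without both replicates 2, a choice made after seeing the data, and 1 to 4 without single arrays. Lipa had an adjusted p of 0.0724 without both replicates 2. Of all genes 366 passed; the count was 551 among genes at or above the median level, 155 with the replicate block, 202 and 88 without those pairs, 807 at a threshold of 0.1, and 120 to 297 without single arrays. Same-numbered livers did not deviate together over all genes (correlations -0.09 to 0.02). No pairing by number was thus shown, but a check over all genes cannot exclude one in fewer genes. In the SREBP2 targets replicate 2 was the lowest of both groups, at -0.19 and -0.24. In the wider pathway list 1 gene passed with quantile normalization, a trend and robust variance, brighter genes only, a threshold of 0.1 (Rnf145 each time) and without either pair (Aacs), 2 with array weights, and 0 to 1 without single arrays (Aacs without WT replicate 2, Cyp46a1 without WT replicate 3). The range of target deviations was 0.0321 to 0.276 in control and 0.243 to 0.461 in knockout livers without single arrays. Estimates near 0 changed sign. Srebf2 became 6.03e-04 with quantile normalization, 0.0240 without both replicates 2, and -0.0897 to 0.0326 without single arrays (above 0 without NCOR_KO replicate 2). Scap became 0.00589 with quantile normalization, 0.0126 with array weights, 0.0165 with the mean of rows, 0.0147 and 0.0486 without the pairs, and -0.0423 to 0.0324 without single arrays. Sqle ranged from -0.298 to 0.0888 without single arrays (above 0 without NCOR_KO replicate 2). The cause of these changes was not tested. With 4 arrays a group, changes of low-level or widely varying members such as Ch25h and Sqle could be missed.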
